A study of Mus musculus with 6 samples.

Results

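Integrin subunit transcripts were compared in sorted bone marrow stromal cell cultures of control and TgAPPsweOCN mice. The 10 genes described were chosen by name, 5 as leukocyte integrins (Itgam, Itgax, Itgal, Itgb2 and Itga4) and 5 as matrix-binding integrins (Itgav, Itgb1, Itgb3, Itgb5 and Itga5). All 10 members were present among the 17469 genes of the deposited table, and all 10 passed the filter on low counts among 12701 tested genes. Of the 10, 4 were up-regulated in the TgAPPsweOCN libraries (Itgal, Itga5, Itgam and Itgb2), 2 were down-regulated (Itgb5 and Itgb3), and Itgb1 was higher by less than a doubling. The other members, Itgax, Itga4 and Itgav, did not pass the test. Itgal had the largest change of the 10, 9.58-fold higher, and went from the fifth to the highest level among them.

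Libraries came from 6-month-old mice of 2 genotypes, Ocn-Cre;Ai9 (control) and TgAPPswe;Ocn-Cre;Ai9 (TgAPPsweOCN), with 3 libraries each and no treatment. Both genotypes carry Cre recombinase under the osteocalcin promoter and the Ai9 reporter, which makes a cell express tdTomato once Cre has acted. The TgAPPsweOCN mice carry in addition a human amyloid precursor protein transgene (APPswe, Swedish mutation) behind a stop cassette that the same Cre removes. Marrow cells that attached in culture (BMSCs) were grown, their tdTomato+ fraction was sorted by flow cytometry, and its RNA was sequenced. For values of these sorted cells 3 mice are given, but no source used here says whether each library is 1 mouse, so p-values measure the spread between these libraries, which may be technical. Osteocalcin-driven Cre acts mainly in osteoblast-lineage cells, and the sort selected any cell in which the reporter was on.

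Estimated counts summed to 19340810 to 19801060 per control library and 21677461 to 22037840 per TgAPPsweOCN library, and the first principal component, which held 84.0% of the variance, separated the genotypes. App was higher in every TgAPPsweOCN library, at a mean of 330.0 ± 4.18 FPKM (SD, n = 3) against 279 ± 3.50, a fold of 1.37 (adjusted p = 7.87e-05, edgeR's quasi-likelihood test), and human and mouse transcripts were not told apart. FPKM (fragments assigned to a gene, corrected for its length and for the library's size) is a level per length, which allows genes to be set side by side. Levels below are FPKM. Fold changes are TgAPPsweOCN over control from edgeR on counts, with TMM normalization, and so need not equal the ratio of mean FPKM. Of all tested genes, 24.0% had a higher FPKM in every TgAPPsweOCN library than in every control library and 48.3% had a lower one, against 5 and 2 of the 10 members. Over all tested genes the log2 fold change had a median of -0.02 with TMM.

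An integrin is a pair of 1 alpha and 1 beta subunit that spans the cell membrane and ties adhesion outside the cell to the actin cytoskeleton inside it. Itgb2 is the beta chain of the leukocyte integrins and pairs with Itgal (αL, CD11a), Itgam (αM, CD11b), Itgax (αX, CD11c) or Itgad (αD), which bind intercellular adhesion molecules and, for αM and αX, complement fragments. Itga4 pairs with Itgb1 or Itgb7 and binds Vcam1 and fibronectin. Itgb1, Itgb3 and Itgb5 each pair with Itgav, and these dimers bind proteins with an RGD motif such as vitronectin, osteopontin and latent TGF-β, while Itga5 with Itgb1 is the classical fibronectin receptor. Osteoclasts are known for the pair of Itgav and Itgb3, macrophages for Itgam, and dendritic cells for Itgax. Osteoblast-lineage cells are known to use Itga5, Itgav and Itgb1.

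In GRCm38 with the GENCODE vM21 annotation, the alpha partners of Itgb2 lie on 1 strand of chromosome 7. Itgal spans 127296260 to 127335138, and 727.5 kb further lie Itgam at 128062640 to 128118491, Itgax at 128129547 to 128150657 and Itgad at 128154376 to 128223816, with gaps of 11.1 and 3.7 kb. The neighbours Itgam and Itgax had opposite signs in these libraries, and Itga5 and Itgb5 were the up- and down-regulated matrix-binding members with the largest changes, so the 250 bases before their RefSeq start sites are shown. Capitals mark letters of the PU.1 core GAGGAA, the Sp1 core GGGCGG or the AP-1 core TGANTCA on either strand, where N is any base. RefSeq promoter entries of GRCm38.p6 were matched for 7 of the 10 members, and no entry was matched for Itgal, Itgb2 and Itgb3. The lines give Itgam at chr7:128062390-128062639 (+), Itgax at chr7:128129300-128129549 (+), Itga5 at chr15:103366792-103367041 (-) and Itgb5 at chr16:33829415-33829664 (+), each 5′ to 3′ on the gene's strand.
Itgam: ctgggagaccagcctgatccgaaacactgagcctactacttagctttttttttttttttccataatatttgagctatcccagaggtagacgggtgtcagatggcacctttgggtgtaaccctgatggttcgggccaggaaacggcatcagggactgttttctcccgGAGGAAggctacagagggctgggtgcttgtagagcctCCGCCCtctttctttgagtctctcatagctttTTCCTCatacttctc
Itgax: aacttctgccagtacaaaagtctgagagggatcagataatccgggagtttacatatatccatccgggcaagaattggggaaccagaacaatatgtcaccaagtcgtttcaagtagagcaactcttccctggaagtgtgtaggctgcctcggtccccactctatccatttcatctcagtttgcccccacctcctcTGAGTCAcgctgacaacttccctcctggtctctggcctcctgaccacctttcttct
Itga5: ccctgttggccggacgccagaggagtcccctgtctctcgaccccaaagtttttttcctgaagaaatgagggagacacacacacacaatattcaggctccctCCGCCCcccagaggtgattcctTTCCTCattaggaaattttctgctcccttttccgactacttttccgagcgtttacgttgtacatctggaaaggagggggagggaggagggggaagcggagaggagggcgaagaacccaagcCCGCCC
Itgb5: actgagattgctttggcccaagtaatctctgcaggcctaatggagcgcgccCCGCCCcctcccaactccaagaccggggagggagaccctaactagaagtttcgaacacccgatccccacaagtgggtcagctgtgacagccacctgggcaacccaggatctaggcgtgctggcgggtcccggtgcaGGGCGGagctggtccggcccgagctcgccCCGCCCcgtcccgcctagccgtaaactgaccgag

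Among 32851 RefSeq promoter windows of the same length, 23.3% held the PU.1 core, 32.7% the Sp1 core and 6.75% the AP-1 core. The Itgam window held 2 PU.1 cores, with first bases 84 and 15 bases before the start, and 1 Sp1 core. The Itgax window held none of those letters and 1 AP-1 core, 56 bases before the start. Itga5 had 1 PU.1 core and 2 Sp1 cores, and Itgb5 had 3 Sp1 cores. Of the matched windows not printed, that of Itgav, which did not pass the test, held 2 PU.1 cores. Itgb1, which was higher, had 1 PU.1 core and 1 Sp1 core, and Itga4 had 1 Sp1 core. The cores were not tested against the changes in level. These are matches of letters and not measured binding. No match of a core overlapped another in these windows.

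Itgal, the alpha chain of the lymphocyte function-associated antigen, was at 71.5, 76.0 and 74.9 FPKM in the 3 control libraries and at 609, 601 and 624 FPKM in the 3 TgAPPsweOCN libraries. The groups lay far apart, and the libraries of a group lay close together. Its log2 fold change was 3.26 (SE 0.0614, adjusted p = 7.69e-09, edgeR's quasi-likelihood test, Benjamini-Hochberg adjusted). Of all tested genes, 8.90% passed both thresholds upward (an adjusted p no higher than 0.05, a log2 fold change no lower than 1), against 4 of the 10 members.

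Itgam, the alpha chain used as a myeloid surface marker, was at 263, 223 and 243 FPKM in control and at 491, 508 and 508 FPKM in TgAPPsweOCN libraries. Every TgAPPsweOCN library was above every control library, by a log2 fold change of 1.26 (SE 0.0719, adjusted p = 1.68e-06, edgeR). Itgb2, the shared beta chain, was at 239, 285 and 266 FPKM in control and at 514, 538 and 525 FPKM in TgAPPsweOCN libraries, a log2 fold change of 1.21 (SE 0.0713, adjusted p = 2.02e-06). The beta chain thus changed by nearly the same fold as Itgam, 2.32 against 2.40, and by less than Itgal. Scaled by library size only, the log2 fold change of Itgb2 was 0.998, just under the threshold of 1.

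Itgax was the leukocyte member that varied most, relative to its mean, between libraries of a genotype. It was at 15.8, 40.9 and 29.4 FPKM in control and at 17.8, 7.31 and 12.6 FPKM in TgAPPsweOCN libraries. Control library 1 was below TgAPPsweOCN library 1, so the groups overlapped. The log2 fold change was -0.97 (SE 0.378, adjusted p = 0.0507, edgeR), which misses the threshold. Without control library 1 it was -1.27 (adjusted p = 0.0103), and without TgAPPsweOCN library 1 it was -1.32 (adjusted p = 0.0166), both past it. Leaving out any of the other 4 libraries gave no call, from -0.63 without control library 2 (adjusted p = 0.173) to -0.97 without control library 3 (adjusted p = 0.108). Estimated counts of Itgax and its neighbour Itgad were fractional in all 6 libraries but summed to whole numbers, within 0.015, in each, from 655 to 3332 reads, so the authors' counting split shared reads between them. With their counts added together the log2 fold change was -0.97 (adjusted p = 0.0504). Itgad itself had a mean of 1.28 FPKM in control and 0.520 in TgAPPsweOCN libraries (log2 fold change -1.08, adjusted p = 0.0626).

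Itga4, the alpha chain of the Vcam1 receptor, was at 14.7, 19.1 and 20.3 FPKM in control and at 16.5, 15.3 and 17.0 FPKM in TgAPPsweOCN libraries. The ranges overlapped, and its log2 fold change was 0.07 (SE 0.113, adjusted p = 0.626, edgeR), with a sign that turned when counts were scaled by library size only (-0.15). Its counts were fractional in all 6 libraries, and no single gene of the table completed them to whole numbers. Cerkl overlaps it on the other strand. The sources used here do not say whether counting used strand. Of the 5 leukocyte members, 3 rose and 2 did not pass the test, with a median log2 fold change of 1.21. Among all tested genes 8.90% were up-regulated past both thresholds, and 32.5% were higher by adjusted p alone.

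**Figure D1:**
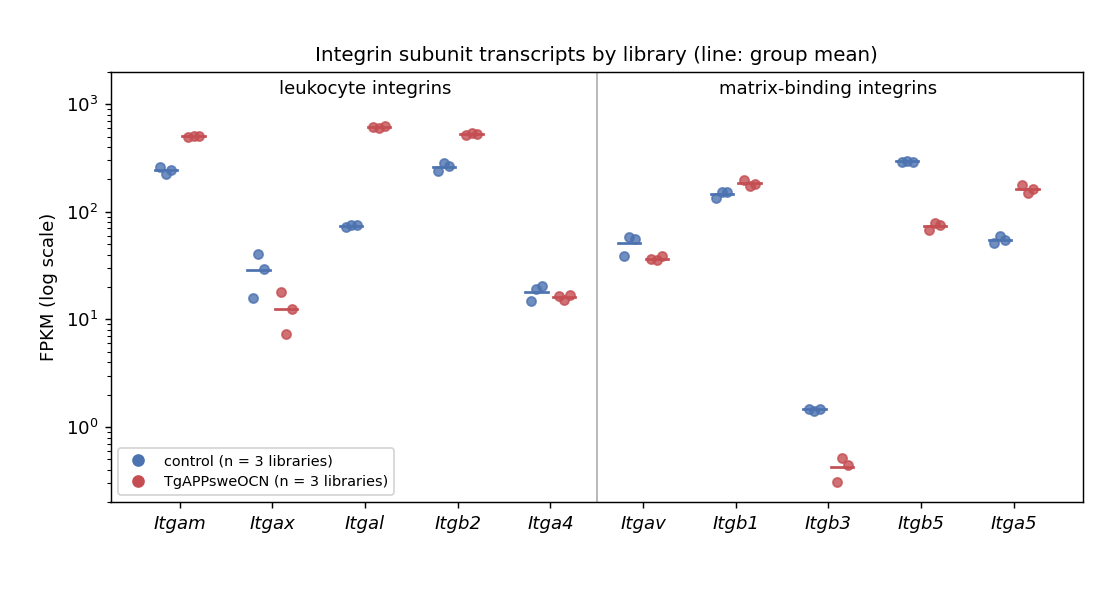
FPKM of the 10 integrin subunits in each library on a log axis, with control libraries in blue, TgAPPsweOCN libraries in red and a line at the mean of each group (n = 3). The 3 TgAPPsweOCN libraries lie above all control libraries for Itgam, Itgal, Itgb2, Itgb1 and Itga5 and below them for Itgb3 and Itgb5, and the groups overlap for Itgax, Itga4 and Itgav.

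Of the matrix-binding alpha chains, Itga5 passed the test and Itgav did not. Itga5, the alpha chain of the fibronectin receptor, was at 50.8, 59.1 and 55.1 FPKM in control and at 177, 149 and 164 FPKM in TgAPPsweOCN libraries. All TgAPPsweOCN libraries were higher, by a log2 fold change of 1.79 (SE 0.0920, adjusted p = 9.69e-07, edgeR's quasi-likelihood test). Itgav, the alpha chain shared by several RGD-binding dimers, was at 38.9, 58.3 and 56.1 FPKM in control and at 36.1, 35.4 and 39.0 FPKM in TgAPPsweOCN libraries. Control library 1 lay within the TgAPPsweOCN range while the other control libraries lay above it. The log2 fold change of Itgav was -0.25 (SE 0.137, adjusted p = 0.135), and without control library 1 it was -0.42 (adjusted p = 0.000773). Without control library 2 it was -0.15 (adjusted p = 0.374), and leaving out any of the other 4 libraries gave no call either. The ratio of Itga5 to Itgav was 1.31, 1.01 and 0.981 in control and 4.91, 4.20 and 4.22 in TgAPPsweOCN libraries, and the 2 sets of ratios did not overlap (two-sided exact permutation test, p = 0.1, the smallest that 3 against 3 libraries allow).

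Of the matrix-binding beta chains, Itgb5 and Itgb3 fell and Itgb1 was higher. Itgb5, a partner of Itgav in the vitronectin receptor, was at 292, 299 and 291 FPKM in control and at 67.5, 78.5 and 74.9 FPKM in TgAPPsweOCN libraries. It was 3.44-fold lower in TgAPPsweOCN cells, a log2 fold change of -1.78 (SE 0.0616, adjusted p = 1.45e-07, edgeR), and the groups lay far apart. Itgb3, the partner of Itgav in osteoclasts and of Itga2b in platelets, was at 1.48, 1.42 and 1.48 FPKM in control and at 0.310, 0.520 and 0.440 FPKM in TgAPPsweOCN libraries, from 161 to 166 reads and from 39 to 65 reads. Its level was the lowest of the 10 members in both genotypes, and its log2 fold change was -1.58 (SE 0.181, adjusted p = 9.11e-05). Of all tested genes, 9.20% passed both thresholds downward, against these 2 of the 10 members.

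Itgb1, the beta chain with the most alpha partners, was at 135, 151 and 151 FPKM in control and at 199, 175 and 182 FPKM in TgAPPsweOCN libraries. Every TgAPPsweOCN library was higher, with a log2 fold change of 0.56 (SE 0.0786, adjusted p = 0.000286, edgeR), under the threshold of 1. Its estimated counts and those of the gene Gm46066 were fractional but summed to whole numbers, within 0.015, in all 6 libraries, and Gm46066 was at 1.45 FPKM in control and 0.903 in TgAPPsweOCN libraries, so few reads were at stake. By adjusted p alone 5 of the 10 members were higher and 2 lower, against 32.5% and 31.5% of all tested genes, and among 10 genes these shares are not far from that background. Without control library 1 the count of lower members by adjusted p was 4, with Itgax and Itgav added. The median log2 fold change of the 5 matrix-binding members was -0.25.

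**Figure D2:**
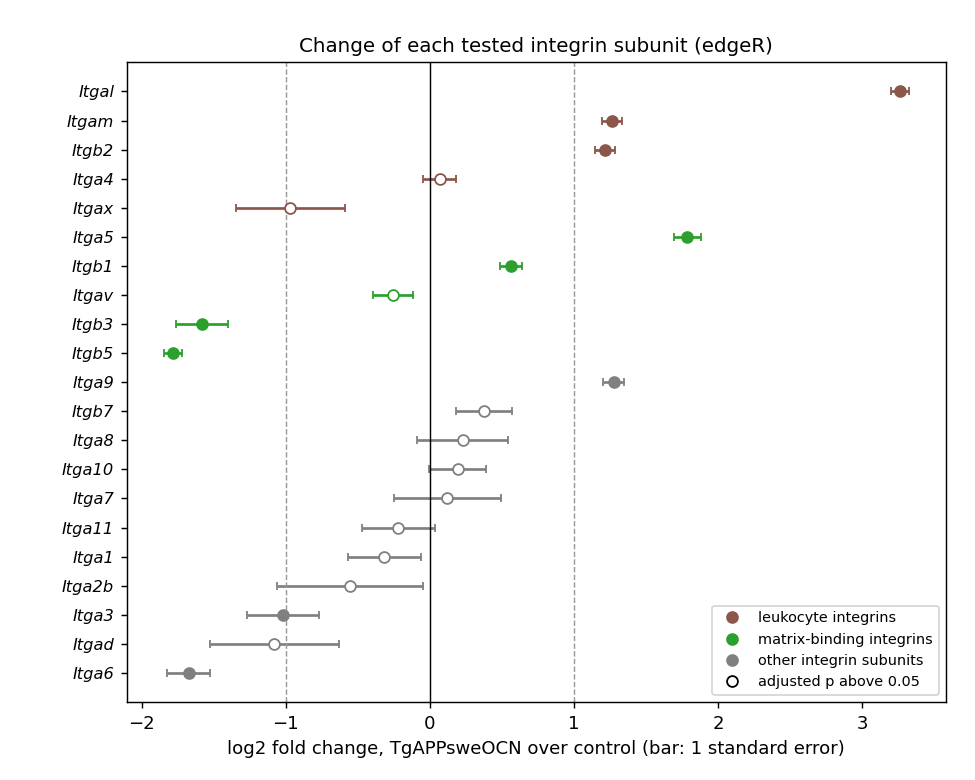
Log2 fold change of each tested integrin subunit, TgAPPsweOCN over control, with 1 standard error, and dashed lines at -1 and 1. Itgal stands at 3.26 at the top of the leukocyte members, Itga5 at 1.79 and Itgb5 at -1.78 mark the ends of the matrix-binding members, and open points (such as Itgax at -0.97) did not pass the adjusted p of 0.05.

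The order of the levels differed between the genotypes. In control libraries Itgb5 had the highest mean, 294 FPKM, followed by Itgb2 at 263, Itgam at 243, Itgb1 at 146, Itgal at 74.1, Itga5 at 55.0, Itgav at 51.1, Itgax at 28.7, Itga4 at 18.0 and Itgb3 at 1.46. Neighbours in that order whose ranges overlapped were Itgb2 and Itgam, Itga5 and Itgav, Itgav and Itgax, and Itgax and Itga4. In TgAPPsweOCN libraries the order was Itgal at 611, Itgb2 at 526, Itgam at 502, Itgb1 at 185, Itga5 at 163, Itgb5 at 73.6, Itgav at 36.8, Itga4 at 16.3, Itgax at 12.6 and Itgb3 at 0.423 FPKM. There the overlapping neighbours were Itgb1 with Itga5 and Itga4 with Itgax. Itgb5 went from the first place to the sixth, and Itgal from the fifth to the first.

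Shares within a family do not depend on the scaling between libraries. Of the summed FPKM of the 4 alpha partners of Itgb2, Itgal held 20.4%, 22.3% and 21.5% in control and 54.5%, 53.8% and 54.5% in TgAPPsweOCN libraries. The means were 21.4% ± 0.944 and 54.3% ± 0.359 (SD, n = 3), a difference of 32.9 percentage points with no overlap (two-sided exact permutation test, p = 0.1, the smallest possible). Itgam had a mean share of 70.0% in control and 44.6% in TgAPPsweOCN libraries although its level rose, and Itgax had 8.30% in control and 1.12% in TgAPPsweOCN libraries. The ratio of Itgal to Itgam ran from 0.272 to 0.341 in control and from 1.18 to 1.24 in TgAPPsweOCN libraries, so the more abundant alpha chain of the pair changed from Itgam to Itgal.

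Among the 8 beta subunits, Itgb2 held 35.8%, 38.7% and 37.4% of the summed FPKM in control and 65.8%, 67.8% and 67.0% in TgAPPsweOCN libraries. The mean difference was 29.6 percentage points, again without overlap (two-sided exact permutation test, p = 0.1). Itgb5 held 41.7% ± 1.72 in control and 9.37% ± 0.658 in TgAPPsweOCN libraries (SD, n = 3), a difference of -32.4 percentage points. Itgb1 held 20.7% and 23.6%, and Itgb3, Itgb4, Itgb6, Itgb7 and Itgb8 held under 1% each. Itgb5 exceeded Itgb1 in each control library, by ratios of 1.93 to 2.17, and was below it in each TgAPPsweOCN library, at ratios of 0.339 to 0.449.

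**Figure D3:**
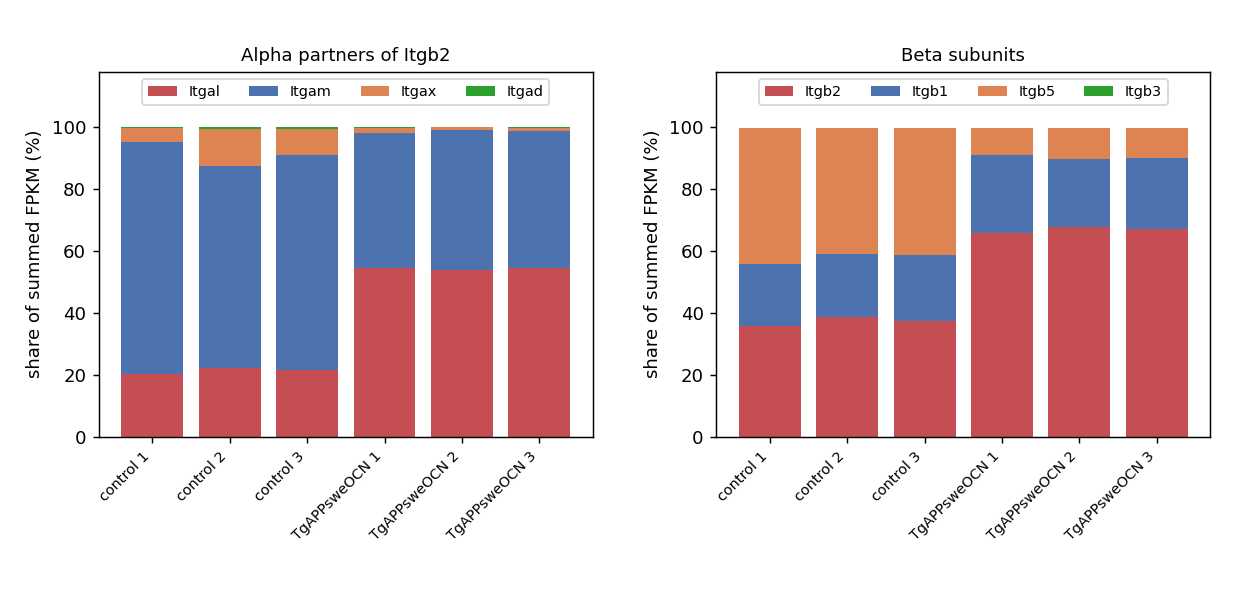
Share of summed FPKM (in %) held by each alpha partner of Itgb2 (left) and by each beta subunit (right) in every library, stacked, where beta subunits with under 1% other than Itgb3 are not drawn. Itgal (left, red) holds 20.4% to 22.3% in control and 53.8% to 54.5% in TgAPPsweOCN libraries, and Itgb5 (right, orange) holds 40.5% to 43.7% and 8.63% to 9.90%.

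The other 16 integrin subunits added little to the total. The 10 members made up 94.9% to 95.1% of the summed FPKM of all 26 integrin genes in control and 97.9% to 98.2% in TgAPPsweOCN libraries, and the sum of all was 1182 to 1276 FPKM and 2151 to 2190 FPKM. Of the 16, 13 had a mean under 1 FPKM, 11 were tested, 1 rose, 2 fell and 8 did not pass the test. Over all tested genes, 8.90% were up- and 9.20% down-regulated. Itga9, a partner of Itgb1 that binds tenascin and osteopontin, rose from 12.7 ± 1.12 to 25.4 ± 0.226 FPKM (log2 fold change 1.28, adjusted p = 1.94e-06, edgeR). Itga6, a laminin-binding alpha chain, fell from 41.7 ± 2.99 to 11.3 ± 2.75 FPKM (log2 fold change -1.67, adjusted p = 1.98e-05). Itga3, another laminin-binding chain, fell from 0.807 to 0.340 FPKM (log2 fold change -1.02, adjusted p = 0.00627). The tested chains that did not pass were Itgad, Itga1, Itga2b, Itga7, Itga8, Itga10, Itga11 and Itgb7, and Itga2, Itgae, Itgb4, Itgb6 and Itgb8 were too low to test. Itga11, a collagen-binding chain of fibroblasts, was at 3.53 and 2.62 FPKM (log2 fold change -0.22, adjusted p = 0.479).

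Ligands were read from a list of the partners on other cells and a list of matrix and secreted proteins. Of 6 tested cell-surface ligands, 2 were up-regulated, Vcam1 was higher by less than a doubling and 3 did not pass the test. The median log2 fold change of the 6 was 0.53. For all tested genes, 8.90% were up-regulated and 32.5% were higher by adjusted p alone. Icam1, a ligand of Itgal and Itgam with Itgb2, was at 37.4, 32.2 and 34.0 FPKM in control and at 223, 210.3 and 217 FPKM in TgAPPsweOCN libraries (log2 fold change 2.87, SE 0.0765, adjusted p = 4.50e-08, edgeR). F11r, a junctional adhesion molecule bound by Itgal, was at 2.85 to 4.22 FPKM in control and at 7.79 to 8.45 in TgAPPsweOCN libraries (log2 fold change 1.49, adjusted p = 2.70e-05). Vcam1, the ligand of Itga4 with Itgb1, was at 1.85 to 2.51 FPKM in control and 2.93 to 3.52 in TgAPPsweOCN libraries (log2 fold change 0.80, adjusted p = 0.00116). Itgal and its ligand Icam1 were thus both higher in the TgAPPsweOCN libraries.

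Of 8 tested matrix and secreted ligands, 1 was down-regulated and 4 were lower by a smaller change. Of the rest, 1 was higher and 2 did not pass the test, and the median log2 fold change of the 8 was -0.55. Beside them, 9.20% of all tested genes were down-regulated, and by adjusted p alone 31.5% were lower and 32.5% higher. Mfge8, a bridging protein that Itgav with Itgb5 or Itgb3 binds, was at 57.9, 76.5 and 65.6 FPKM in control and between 18.0 and 25.1 FPKM in the TgAPPsweOCN libraries (log2 fold change -1.49, SE 0.135, adjusted p = 2.22e-05, edgeR). Spp1 (osteopontin), the ligand with the highest level, went from 944 ± 67.3 to 561 ± 98.9 FPKM (log2 fold change -0.54, adjusted p = 0.00259). Fn1 (fibronectin), the ligand of Itga5 with Itgb1, was at 157, 106 and 138 FPKM in control and at 58.7, 120 and 93.1 in TgAPPsweOCN libraries, and the groups overlapped (log2 fold change -0.36, adjusted p = 0.200). No gene of the deposited table was matched by symbol to vitronectin or the fibrinogen chains, so they were not analysed.

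Inside the cell, talin, kindlin and vinculin join the beta tail to actin, and the small GTPase Rap1 with its adaptor Apbb1ip (RIAM) brings talin to the membrane. Of 18 tested activators and adaptors, 4 were up-regulated and 5 were higher by a smaller change. A further 5 did not pass the test, 3 were lower by a smaller change and 1 was down-regulated. The median log2 fold change of the 18 was 0.20. The shares over all tested genes were 8.90% up- and 9.20% down-regulated, and by adjusted p alone 32.5% higher and 31.5% lower. Apbb1ip was at 87.7 to 95.7 FPKM in control and at 210.1 to 226 in TgAPPsweOCN libraries (log2 fold change 1.47, adjusted p = 2.14e-07, edgeR). Rap1b was at 207 to 225 FPKM and at 463 to 498 (log2 fold change 1.36, adjusted p = 6.72e-07), Vcl (vinculin) had a log2 fold change of 1.05 (adjusted p = 6.82e-05), and Rasgrp2, an exchange factor for Rap1, 1.09 (adjusted p = 0.00112). These 4 are the genes of the list past both thresholds upward, while Ilk (log2 fold change -0.45) and Parva (-0.38) were lower by smaller changes. The kindlins went in different directions, with Fermt3, the kindlin of blood cells, higher (log2 fold change 0.69, adjusted p = 1.68e-05) and Fermt2, that of stromal cells, lower (-0.76, adjusted p = 0.00252). Tln1 (talin) was higher as well (0.74, adjusted p = 2.12e-05), and Parvb, a parvin that binds integrin-linked kinase, was down-regulated (-1.16, adjusted p = 2.67e-06).

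Of the 6 kinases described here, which signal from integrins, 3 were up-regulated, 2 were higher by a smaller change and 1 was lower. The 3 were Fgr and Lyn, Src-family kinases of myeloid cells, and Syk, which they activate. Among all tested genes 8.90% were up- and 9.20% down-regulated, and by adjusted p alone 32.5% were higher and 31.5% lower. Syk was at 67.2 to 68.5 FPKM in control and at 159 to 171 in TgAPPsweOCN libraries (log2 fold change 1.53, adjusted p = 1.40e-07, edgeR). Lyn had a log2 fold change of 1.23 (adjusted p = 5.30e-07), and Fgr, at a low level, 1.83 (adjusted p = 3.65e-06). The focal adhesion kinase Ptk2 and Src were higher by smaller changes (0.54 with an adjusted p of 0.000788, and 0.44 with an adjusted p of 0.0408), and Ptk2b was lower (-0.26, adjusted p = 0.00310). Of the 5 inhibitors of integrin activation, 2 were higher and 2 lower by smaller changes and Rasa3, which turns Rap1 off, was down-regulated, from 39.7 ± 0.936 to 14.4 ± 1.98 FPKM (log2 fold change -1.25, adjusted p = 4.82e-06). Flna (filamin A), which competes with talin for the beta tail, was higher (0.96, adjusted p = 2.47e-06). Among 5 partners in the membrane, Cd47 rose (1.28, adjusted p = 6.00e-07), the tetraspanin Cd9 fell from 235 ± 44.7 to 41.6 ± 4.32 FPKM (-2.28, adjusted p = 2.24e-06), 2 were higher by a smaller change and 1 did not pass.

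**Figure D4:**
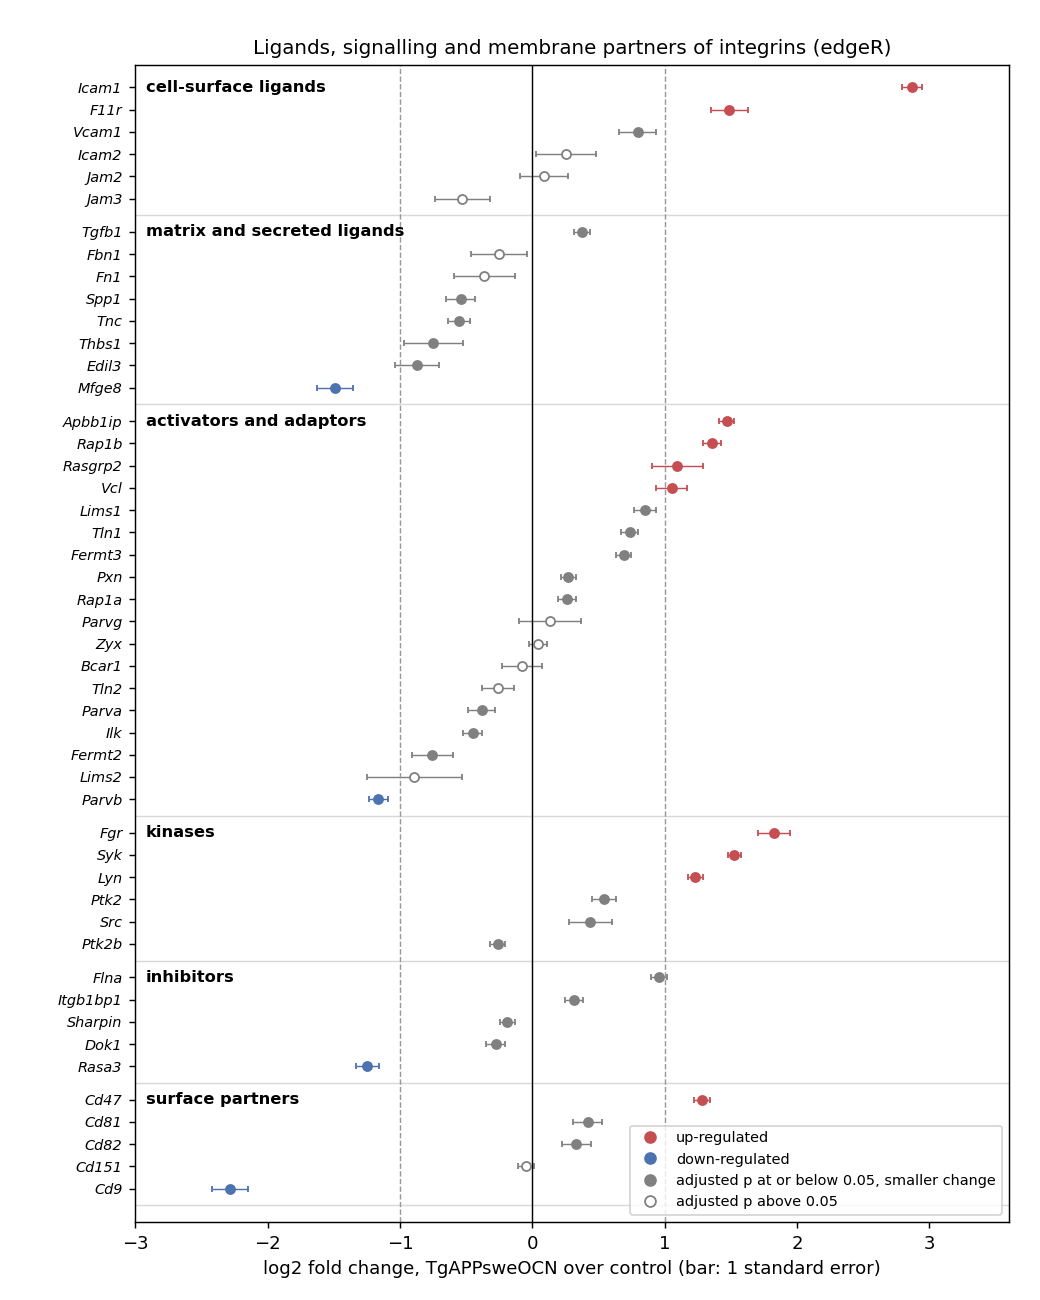
Log2 fold change, TgAPPsweOCN over control, of each tested ligand, signalling gene and membrane partner of integrins, with 1 standard error and dashed lines at -1 and 1. Icam1 stands at 2.87 and the kinases Fgr, Syk and Lyn between 1.23 and 1.83, while Mfge8 (-1.49), Parvb (-1.16), Rasa3 (-1.25) and Cd9 (-2.28) are down-regulated.

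Marker genes of the cell types that could carry these integrins were read beside them. Summed over 15 macrophage markers, FPKM was 18540 to 19270 in control and 15010 to 18810 in TgAPPsweOCN libraries, and the sums overlapped. Without Lyz2 they were 9525 to 10010 and 9396 to 10090 FPKM. Both sums pool markers that moved in opposite directions. Of the 15 markers, 5 were higher by adjusted p (Adgre1, Aif1, Fcer1g, Spi1 and Ptprc). Lower were 8 (Csf1r, Cd68, Mrc1, Tyrobp, Ctss, Cx3cr1, Fcgr3 and Mertk), and 2 did not pass. Here and for the marker lists below, the shares over all tested genes by adjusted p alone were 32.5% higher and 31.5% lower. Past both thresholds they were 8.90% up- and 9.20% down-regulated. Lyz2 was at 9057 ± 191 and 6977 ± 1677 FPKM (adjusted p = 0.418, edgeR), and Fcer1g at 1879 ± 140.4 and 3497 ± 264 (log2 fold change 1.11, adjusted p = 5.19e-06). In the 14 tested of 15 stromal and osteoblast markers, 0 were up- or down-regulated, 2 were higher and 2 lower by smaller changes and 10 did not pass. Their summed FPKM was 165 to 182 in control and 130.4 to 204 in TgAPPsweOCN libraries, with Col1a1 and Col1a2 at means of 45.5 and 53.0 FPKM in control. Bglap, which encodes osteocalcin and defines the Cre line, was at 0.350 to 1.25 FPKM in control and at 0 to 0.490 in TgAPPsweOCN libraries. The labelled stromal cells were thus sorted fractions in which macrophage markers had far higher levels than stromal ones. In RNA from many cells, fewer cells of a type and less RNA per cell cannot be told apart.

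Markers of other cell types known for 1 or more of the members were read in the same way. Osteoclast markers, which bear on Itgb3 and Itgav, summed to 37.1 to 58.6 FPKM in control and 104 to 226 FPKM in TgAPPsweOCN libraries. Without Mmp9 they summed to 34.4 to 57.3 and 34.4 to 56.7 FPKM, and within that remainder Acp5 and Atp6v0d2 moved in opposite directions by like amounts. Of the 6 tested, Mmp9, Acp5 and Ocstamp rose (Mmp9 from 1.31 to 2.74 FPKM in control to 69.3 to 169 FPKM, and Acp5 from 3.49 to 5.62 FPKM to 22.3 to 46.1 FPKM), Atp6v0d2, a proton pump subunit, was down-regulated from 34.9 ± 10.5 to 5.37 ± 0.408 FPKM (log2 fold change -2.38, adjusted p = 1.64e-05, edgeR), Ctsk was lower by a smaller change and Dcstamp did not pass. Calcr was at 0 in 5 of 6 libraries. Megakaryocyte markers, which also bear on Itgb3, summed to 527 to 638 FPKM and 117 to 266 FPKM, nearly all of it Pf4, which macrophages can express, while Ppbp was at 2.01 and 1.31 FPKM. Gp1ba, a platelet receptor chain, was down-regulated at a low level, 0.893 against 0.303 FPKM (log2 fold change -1.33, adjusted p = 0.00141, edgeR), and Gp9 and Gp6, too low to test, were higher in every TgAPPsweOCN library. Dendritic cell markers, which bear on Itgax, summed to 2.12 to 3.03 FPKM and 9.92 to 12.4 FPKM, with Batf3 (1.96 to 10.1 FPKM in the means) and Xcr1 (0.143 to 0.457) up-regulated and the other 6 under 0.35 FPKM in each library. Neutrophil markers, which bear on Itgam and Itgb2, summed to 13.6 to 54.3 and 19.1 to 52.2 FPKM and overlapped, with S100a9 at 12.1 and 9.82 FPKM, S100a8 at 7.86 and 12.6 FPKM, Camp up-regulated and Ly6g at 0 in 4 of 6 libraries. Lymphoid markers, which bear on Itgal, summed to 0.510 to 0.760 and 0.460 to 0.720 FPKM, with Cd8a highest at 0.393 and 0.370 FPKM and Lck next at 0.120 and 0.0967. Endothelial markers summed to 1.90 to 4.14 and 2.10 to 2.38 FPKM, with Cdh5 and Kdr highest. The part of any of these cell types in the integrin values was not tested.

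**Figure D5:**
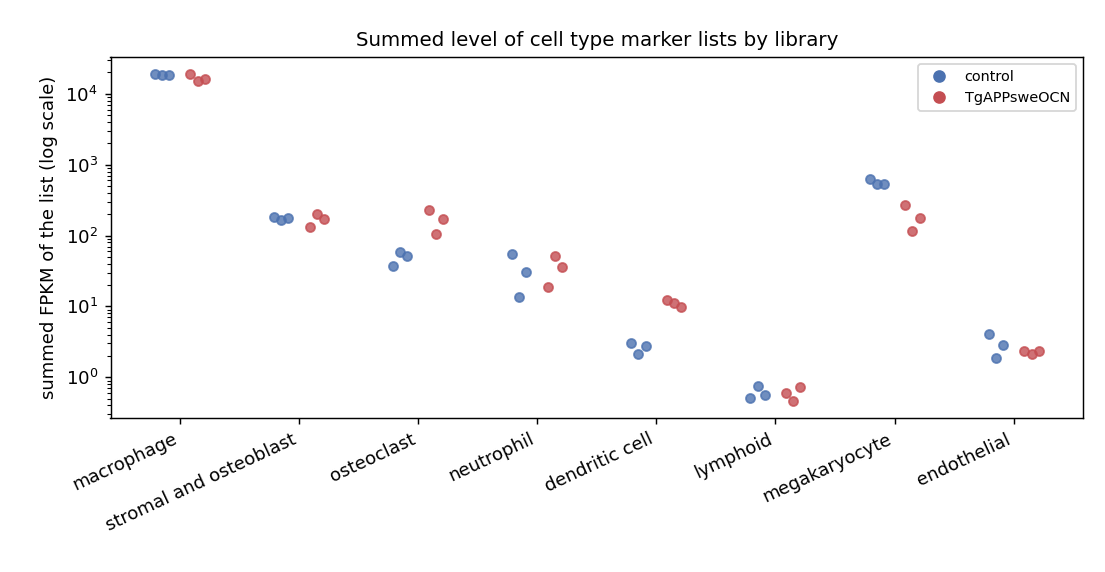
Summed FPKM of each cell type marker list in every library, on a log axis, with control libraries in blue and TgAPPsweOCN libraries in red. The macrophage list lies highest, at 15010 to 19270, the osteoclast list (with Mmp9) and the dendritic cell list are higher and the megakaryocyte list is lower in all TgAPPsweOCN libraries, and the lymphoid list stays between 0.460 and 0.760.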

How the data were processed

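The authors sequenced RNA of tdTomato+ BMSCs, 3 libraries per genotype, on a DNBSEQ platform. The submitters' processing notes name mm10, HISAT2 2.0.4, Bowtie2 2.2.5, RSEM 1.2.12 and DESeq2 1.4.5. The authors deposited estimated counts and FPKM values for 17469 genes. Estimated counts of shared reads are fractional in 13.3% to 14.4% of genes per library. A further table, not used, repeats FPKM for part of the genes beside the authors' own log ratios and p-values. Groups were taken from the genotype labels.

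Estimated counts were rounded and tested with edgeR 4.0.16 in R 4.3.3 (genes kept by filterByExpr, TMM factors, quasi-likelihood test, Benjamini-Hochberg adjustment over 12701 genes, no replicate block), with a biological coefficient of variation of 9.85%. The design had foreseen whole counts, so rounding was added. A gene was called up- or down-regulated when its adjusted p was no higher than 0.05 and it changed by 1 or more on the log2 scale. Shares and ratios were computed from FPKM and compared by an exact permutation test. A floor of 3 counts was 0.136 to 0.155 CPM, which covers counting error only. Libraries of a group differed by more than counting noise, and all 6 were used. Alternatives were DESeq2 1.42.0, RLE factors, library size only, other filters, a replicate block, limma 3.58.1 on log2(FPKM + 1) or log2(FPKM + 0.1), and leaving out each library. Adding Itgax and Itgad was chosen after the data were seen. Positions come from GENCODE vM21 and promoters from RefSeq GRCm38.p6. The edgeR procedure was also run on simulated counts in which few genes changed, unlike these data. That run therefore says nothing of how scaling affected the calls here.

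The members and lists were chosen with earlier results of these data known. The genes named are the 10 members, every other integrin subunit, App, each gene of the ligand and partner lists past both thresholds (or the most abundant until 2 were named) and the 2 most abundant genes of each marker list. Vcam1, Fn1, Ptk2, Src, Ptk2b, Fermt2, Fermt3, Tln1, Bglap and the further marker genes named are exceptions chosen once their values had been seen. The kinase counts cover the 6 kinases described, and 1 further kinase is not reported here.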

Additional observations from a re-analysis of the deposited data

How the results depend on the processing

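Itgal, Itgam, Itgb2, Itga5 and Itgb1 stayed higher and Itgb5 lower past the adjusted p of 0.05 in all 15 alternatives fitted for each, and Itgb3 lower in all 13. Itgb3 was under a mean FPKM of 1 and could not be fitted in the limma fits with that filter. The number of down-regulated members was 2, and it was 1 with limma on log2(FPKM + 1) without a filter, where Itgb3 had a log2 fold change of -0.79. The number lower by adjusted p alone was 2, and it was 4 with library size only, which moved the median log2 fold change of all genes to -0.23. Leaving out each library gave 2 to 4, the highest without control replicate 1. The log2 fold change of Itga4 turned to -0.15 with library size only, to -0.13 with limma on log2(FPKM + 1) with or without a filter (-0.1299), to -0.14 with a pseudocount of 0.1 (-0.1361), and ran from -0.066 without control replicate 1 to 0.15 over the libraries left out. Itgax ran from -1.32 to -0.63, with an adjusted p of 0.0103 to 0.173, and passed in 7 of its 16 alternatives. Itgav ran from -0.47 to -0.15 and passed in 4 of 15. The cause was not tested. Up-regulated members were 3, without Itgb2, with library size only and with limma on log2(FPKM + 1) with or without a filter. Down-regulated members were 3, with Itgax added, with library size only, without control replicate 1 and without TgAPPsweOCN replicate 1. With limma on genes of at least 1 FPKM they were 2, Itgb5 and Itgax, where Itgax had a log2 fold change of -1.11 (adjusted p = 0.0349) with a pseudocount of 1 and -1.17 (adjusted p = 0.0468) with 0.1.

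The same replicate numbers correlated by 0.0127, 0.00664 and 0.141 in their deviations from the group means, 1 of 3 over 0.1, so the numbers were not taken as pairs. With the replicate block 4 members were up- and 2 down-regulated, and 5 were higher and 2 lower by adjusted p alone, as without it. For the differences in share, 32.9 points for Itgal and 29.6 for Itgb2, the replicate block gives the same means by construction and an exact sign-flip p of 0.25, the smallest 3 pairs allow, so it says nothing of their stability. Computed from counts, the differences were 33.5 and 27.3 points. Depth limits little here except for Itgb3, with 39 to 166 reads per library.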
